A study of Mus musculus with 12 samples.

Results

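The genes described here make and break down glycogen in skeletal muscle. They were chosen by name, as 8 genes: Ugp2, Gys1, Gbe1, Pygm, Phka1, Phkg1, Ppp1r3a and Ppp1r3c. On the array, 17 of the 45037 probe sets tested carried 1 of these symbols and no other symbol, out of 18193 genes named. Pygm, Gbe1 and Ppp1r3a were each read by 1 probe set, Gys1, Phkg1 and Ppp1r3c by 2, Phka1 by 3 and Ugp2 by 5. RNA came from skeletal muscle of C57Bl/6 mice and was measured on 12 arrays in 3 groups of 4. Chow mice ate a diet with 13% of calories as fat throughout. Mice of the other groups ate that chow to 6 weeks of age and then a high-fat diet with 46% of calories as fat, for 5 days or for 42 days. The 42-day mice were therefore older than the 5-day mice when sampled, so time on the diet and age cannot be told apart. The labels name neither the muscle nor the sex, do not say how old chow mice were when sampled, give no batch, and do not state that replicates are different animals. P-values therefore measure only the spread between these samples, which may be technical.

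Muscle stores glucose as glycogen granules. Ugp2, UDP-glucose pyrophosphorylase, makes the activated glucose, Gys1, the muscle glycogen synthase, adds it to the growing chain, and Gbe1, the branching enzyme, places the branches. Pygm, the muscle glycogen phosphorylase, releases glucose units again, and it is switched on by phosphorylase kinase, of which Phka1 encodes the muscle regulatory alpha subunit and Phkg1 the muscle catalytic gamma subunit. Ppp1r3a and Ppp1r3c are glycogen-targeting subunits that bring protein phosphatase 1 to the granule, where it activates the synthase and inactivates the phosphorylase. Insulin favours storage in this tissue largely through phosphorylation of these proteins, which an mRNA level does not show.

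After 42 days on the high-fat diet, 1 probe set of Gys1 was 1.66-fold and 1 of Ppp1r3c 1.44-fold above chow, while the brighter probe set of each gene was not. After 5 days the same Gys1 probe set was 1.35-fold above chow, a call that held in 2 of 12 fits with an array left out and was lost under quantile normalization. The level read for Pygm moved by about 0.01 or less on the log2 scale at either time. Its signal ranked above 99.95% of probe sets, and whether the array could register a change there was not tested. None of the probe sets of Ugp2, Gbe1, Phka1, Phkg1 or Ppp1r3a passed the test in any comparison.

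The sequences before the transcription starts of Gys1, Ppp1r3c and Pygm are shown because Gys1 and Ppp1r3c had the probe sets that rose and Pygm the steadiest signal of the 17. Each is the 250 bases upstream of the start in RefSeq's GRCm38.p6 annotation, read 5-prime to 3-prime on the gene's own strand: chr7:45434589-45434838 on the plus strand for Gys1, chr19:36736605-36736854 on the minus strand for Ppp1r3c and chr19:6384158-6384407 on the plus strand for Pygm. Capitals mark a match to CCAAT, to the GC box GGGCGG or to the E-box CACGTG, on either strand.
Gys1 promoter: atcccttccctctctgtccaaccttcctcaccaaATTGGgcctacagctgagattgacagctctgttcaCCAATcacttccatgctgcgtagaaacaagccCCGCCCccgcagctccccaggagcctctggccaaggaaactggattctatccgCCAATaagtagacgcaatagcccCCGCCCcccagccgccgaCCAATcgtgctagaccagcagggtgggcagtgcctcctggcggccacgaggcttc
Ppp1r3c promoter: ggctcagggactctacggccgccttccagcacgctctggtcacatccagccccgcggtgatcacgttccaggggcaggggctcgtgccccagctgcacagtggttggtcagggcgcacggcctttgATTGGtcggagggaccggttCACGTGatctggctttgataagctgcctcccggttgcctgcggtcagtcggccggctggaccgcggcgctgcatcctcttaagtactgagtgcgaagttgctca
Pygm promoter: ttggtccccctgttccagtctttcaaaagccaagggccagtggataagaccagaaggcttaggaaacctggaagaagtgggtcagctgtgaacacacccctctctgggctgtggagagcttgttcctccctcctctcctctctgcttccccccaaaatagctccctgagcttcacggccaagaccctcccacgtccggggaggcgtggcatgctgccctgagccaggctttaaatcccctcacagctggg
The window of Gys1 held CCAAT at 4 places, 216, 181, 96 and 55 bases before the start, and GC boxes at 149 and 73. That of Ppp1r3c held 1 E-box, 104 bases before the start, and 1 CCAAT at 124, and that of Pygm none of these. All 8 genes had an entry, with 9 windows in all because Ugp2 has 2. CCAAT stood in 4 of the 9 windows and in 33.8% of 32851 windows of the same length, the GC box in 4 and in 32.7%, and the E-box in 1 and in 6.02%. Of the other motifs searched, TATAAA, the TATA box, stood in 1 of the 9 (Ppp1r3a) against 12.4%. TGACGTCA, the cAMP response element, and GTAAACA, a forkhead site, stood in none of the 9, against 1.55% and 3.17%. A match is a description of the letters and not a binding site.

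The values are RMA signals on the log2 scale, between 3.67 and 15.46, so a difference of 1 is a factor of 2, and a level says nothing about one gene against another. The arrays' medians lay between 7.649 and 7.690 on chow, 7.593 and 7.630 at 5 days, and 7.655 and 7.701 at 42 days. Every 5-day median was thus below those of all other arrays, and results with arrays centred on their median are given at the end. Markers of muscle fibres averaged 14.96, 14.95 and 14.97 in the chow, 5-day and 42-day groups (log2 signal, mean over 10 genes), and the 12 fast-fibre genes 15.14, 15.13 and 15.13. Both list means lie above 14.5, and whether markers this bright could register a change in fibre content was not tested. Each group mean below rests on n = 4 arrays with its SD, each difference has its SE from a limma fit over all 12 arrays, and every adjusted p is limma's with Benjamini-Hochberg adjustment over the 45037 probe sets. A probe set passed the test at an adjusted p under 0.05.

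The first comparison asked which of these genes differed from chow after 5 days. Of the 17 probe sets, 1 passed, the dimmer of Gys1, and it rose. That is 5.88% of them, beside 3.21% of all probe sets tested, with 1.53% of all rising and 1.68% falling. The median difference of the 17 was 0.07, with 15 higher and 2 lower, and that of all probe sets -0.02. Most of the 17 are bright, and among the 4504 brightest probe sets the median was 0.061, with 74.4% higher. Groups did not overlap for 2 of the 17, the Phka1 probe set 1422744_at and the Ugp2 probe set 1426460_a_at, a share of 11.8% beside 11.7% of all.

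At 42 days against the same chow arrays, 2 of the 17 passed and both rose, 1 of Gys1 and 1 of Ppp1r3c. Their share was 11.8%, beside 8.78% of all probe sets (4.65% rising, 4.13% falling). The median difference was 0.04 over the 17 (10 higher, 7 lower), -0.01 over all and -0.038 over the 4504 brightest. Groups did not overlap for 6 of the 17, or 35.3%, beside 15.2% of all: both risen probe sets, 2 of Phka1 and 2 of Ugp2. Between 42 and 5 days, 1 of the 17 passed, the brighter probe set of Gys1, which was lower at 42 days. This was 5.88%, beside 5.98% of all (2.38% higher and 3.59% lower at 42 days). Here groups did not overlap for 3 of the 17, beside 17.8% of all. An F-test over the 3 groups passed 2 of the 17, beside 12.9% of all, the same 2 that rose at 42 days. At an unadjusted p under 0.05 in limma, 4, 7 and 3 of the 17 stood out in the 3 comparisons, or 23.5%, 41.2% and 17.6%. Over all probe sets these shares were 24.1%, 23.1% and 27.6%, and over the 4504 brightest 24.4%, 34.4% and 36.2%. The shares of the 17 that passed at an adjusted p under 0.05 lay within 1 probe set of the background in the 3 comparisons, while the share without overlap at 42 days lay further above it. Those 6 probe sets include several of the same gene. The share without overlap among the 4504 brightest was not taken, so no excess for these genes can be read from it.

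**Figure D1:**
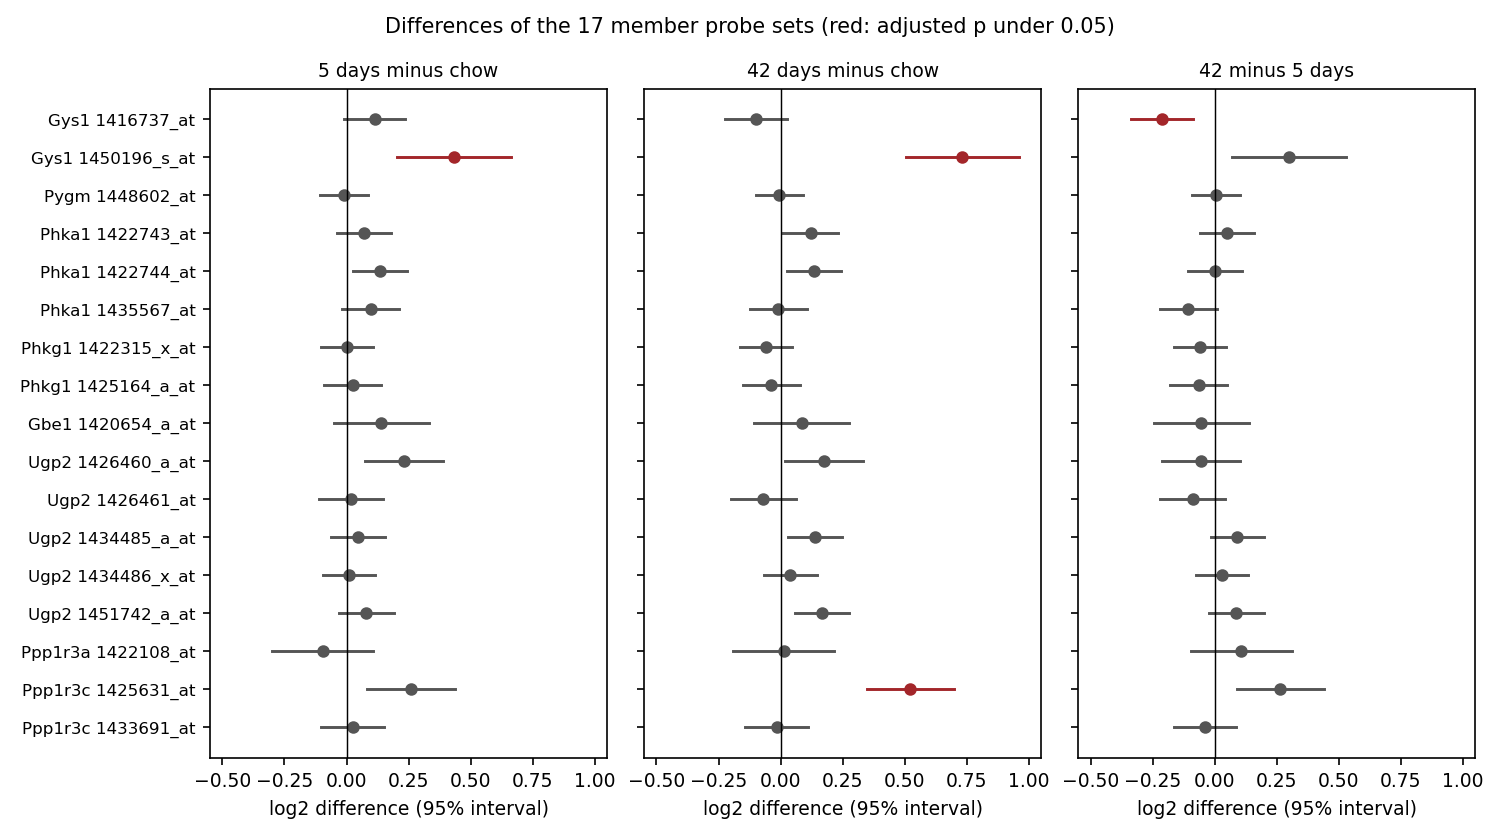
Differences of the 17 probe sets on the log2 scale (x axis) in the 3 comparisons, with 95% confidence intervals from limma. Red marks an adjusted p under 0.05: 1 probe set at 5 days, 2 at 42 days and 1 between 42 and 5 days, while most intervals cover 0.

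Ugp2 supplies UDP-glucose, the donor for every added glucose unit. Its brightest probe set, 1451742_a_at, read 13.84, 13.81, 13.76 and 13.74 on chow, 13.91, 13.89, 13.84 and 13.84 at 5 days, and 13.87, 13.97, 13.97 and 14.01 at 42 days. The 42-day values lay above all chow values, while the 5-day values overlapped both. The difference at 42 days was 0.17 ± 0.05, with adjusted p = 0.058 by limma, which did not pass. It passed in 1 of 12 fits with an array left out, that without 42-day replicate 1 (0.20, adjusted p = 0.0499). In the others the adjusted p was 0.0507 to 0.156.

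The other 4 Ugp2 probe sets did not pass at either time. At 42 days their differences from chow were 0.18 ± 0.07 for 1426460_a_at, 0.14 ± 0.05 for 1434485_a_at, 0.04 ± 0.05 for 1434486_x_at and -0.07 ± 0.06 for 1426461_at. At 5 days the first of these stood 0.23 ± 0.07 above chow, with adjusted p = 0.084, and its groups did not overlap (11.97 to 12.09 on chow, 12.19 to 12.34 at 5 days). In the 42-day group that probe set read 11.96 on replicate 1 and 12.27 to 12.31 on the other arrays. Leaving that array out gave a 42-day difference of 0.26, with adjusted p = 0.0185, and an adjusted p of 0.0445 at 5 days. At each time this was the 1 fit of 12 that passed. In the others the adjusted p was 0.166 to 0.349 at 42 days and 0.086 to 0.179 at 5 days. The probe sets of Ugp2 thus did not move as 1: 4 of 5 were higher and 1 lower at 42 days.

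Gys1 is the enzyme of chain elongation and its probe sets disagreed. Probe set 1450196_s_at, whose suffix marks probes shared by several transcripts, read 10.54, 10.35, 10.35 and 10.07 on chow, 10.71, 10.85, 10.48 and 11.01 at 5 days, and 10.998, 11.03, 11.02 and 11.19 at 42 days. Every 42-day array was above every chow array, whereas the lowest 5-day array lay within the chow range. Group means were 10.33 ± 0.19, 10.76 ± 0.23 and 11.06 ± 0.09. The rise was 0.73 ± 0.11 at 42 days (95% interval 0.50 to 0.96, adjusted p = 0.0011) and 0.43 ± 0.11 at 5 days (0.20 to 0.66, adjusted p = 0.0445). From 5 to 42 days the difference was 0.30 ± 0.11, which did not pass (adjusted p = 0.0945).

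The 42-day rise of this probe set passed with each array left out in turn, at 0.65 to 0.80. The 5-day call passed in 2 of these 12 fits, those without chow replicate 1 or 5-day replicate 3, and was lost in the other 10, with adjusted p between 0.0515 and 0.123. It was lost under quantile normalization as well (0.35, adjusted p = 0.108).

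The brighter Gys1 probe set, 1416737_at, read 12.60, 12.61, 12.68 and 12.52 on chow, 12.71, 12.76, 12.60 and 12.78 at 5 days, and 12.43, 12.50, 12.53 and 12.54 at 42 days. The 5-day and the 42-day values did not overlap, and the chow values lay between them and overlapped both. Its means were 12.60 ± 0.07, 12.71 ± 0.08 and 12.50 ± 0.05. Neither time passed against chow (0.11 ± 0.06, adjusted p = 0.25, and -0.10 ± 0.06, adjusted p = 0.33), and the 42-day level was below the 5-day level (-0.21 ± 0.06, adjusted p = 0.0458). That last call held in 3 of 12 fits with an array left out, those without chow replicate 1, 3 or 4. In the other 9 the adjusted p was 0.0558 to 0.130, and it was 0.148 after quantile normalization.

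Ppp1r3c, often called PTG, targets protein phosphatase 1 to glycogen, and its probe sets differed in the same manner. Probe set 1425631_at read 13.47, 13.14, 13.38 and 13.37 on chow, 13.61, 13.68, 13.42 and 13.69 at 5 days, and 13.91, 13.71, 13.99 and 13.85 at 42 days. The 42-day values lay above all 8 others, and 1 of the 5-day values lay within the chow range. Means were 13.34 ± 0.14, 13.60 ± 0.12 and 13.86 ± 0.12. The rise at 42 days was 0.52 ± 0.08 (95% interval 0.35 to 0.70, adjusted p = 0.0016), and it passed with every array left out in turn, at 0.46 to 0.57. At 5 days the difference was 0.26 ± 0.08, which did not pass (adjusted p = 0.082), nor did 0.26 ± 0.08 between 5 and 42 days (adjusted p = 0.067).

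The brighter Ppp1r3c probe set, 1433691_at, read 14.68, 14.59, 14.77 and 14.77 on chow, 14.79, 14.73, 14.71 and 14.69 at 5 days, and 14.72, 14.61, 14.78 and 14.65 at 42 days. All 3 groups overlapped, with differences from chow of 0.02 ± 0.06 and -0.02 ± 0.06. The 95% interval at 42 days ran from -0.14 to 0.11 and so did not reach the 0.52 of the other probe set. This probe set lies above 14.5, where 0 of 72 probe sets passed at either time and the median size of the 42-day change was 0.027, and whether it could register a rise was not tested.

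**Figure D2:**
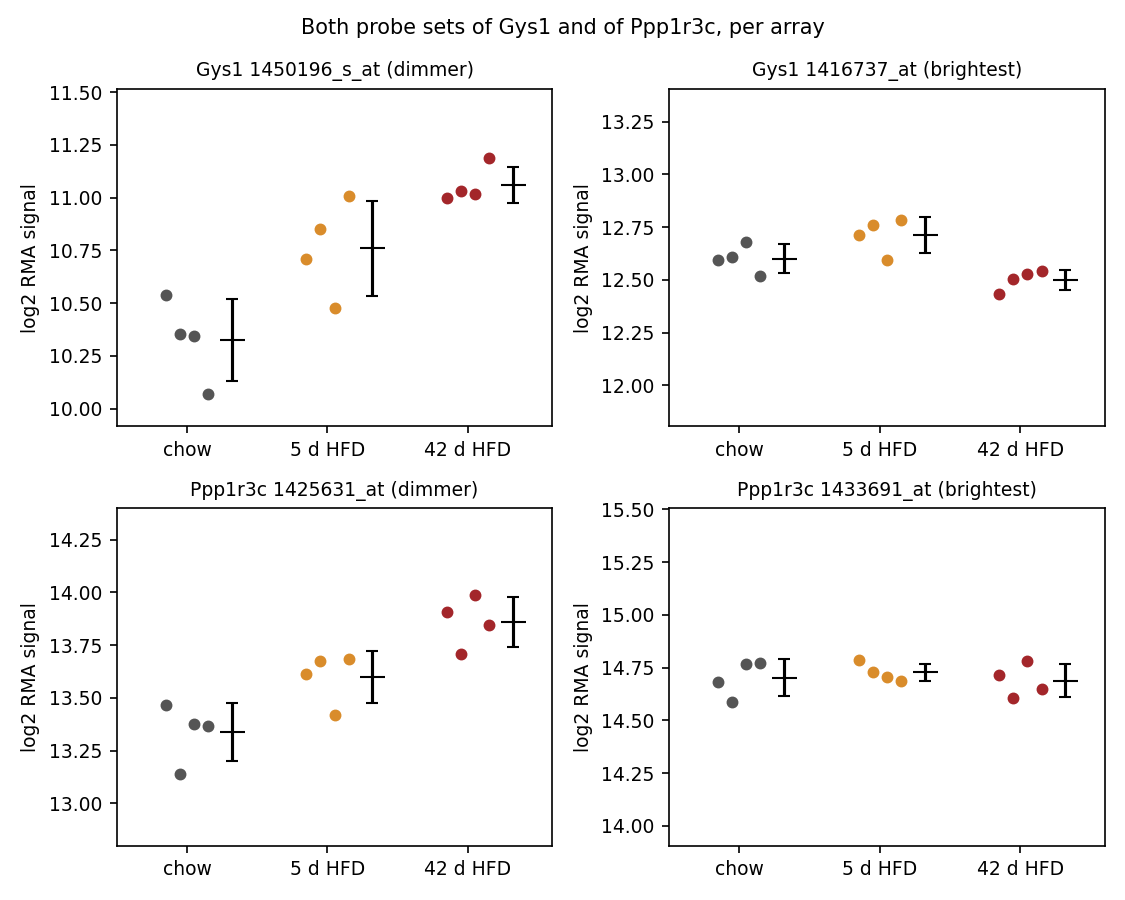
Log2 RMA signal (y axis, equal height in every panel) of both probe sets of Gys1 (top) and of Ppp1r3c (bottom) in chow, 5-day and 42-day mice; dots are arrays, and the bar beside them is mean ± SD (n = 4). The dimmer probe sets (left) lie highest at 42 days, and the brighter ones (right) change little.

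The gap between probe sets of 1 gene was tested array by array, as the dimmer minus the brightest, with an exact two-sided permutation test of 4 against 4 arrays, whose smallest p is 0.0286. From chow to 42 days it shifted by 0.83 for Gys1 and by 0.54 for Ppp1r3c, with p = 0.0286 by the exact test and no overlap for either. Over the 27 such tests the adjusted p was 0.0701 for both, so neither passed the adjustment, although the exact p was the smallest this design allows. From chow to 5 days the shifts were 0.32 for Gys1 and 0.24 for Ppp1r3c (exact p = 0.0571 each). At 42 days the gap also shifted, with no overlap, for Phka1 1435567_at (-0.13), Ugp2 1426461_at (-0.24) and Ugp2 1434486_x_at (-0.13). Their exact p was 0.0286 and their adjusted p 0.0701 as well, so a shift without overlap was not particular to Gys1 and Ppp1r3c. These shifts were smaller, and tests that share the smallest exact p do not rank them by size. For Ppp1r3c this gap rests on the probe set above 14.5. Which transcript or which end of it each probe set reads was not analysed here.

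Several measures moved along with the 2 probe sets that rose. The 3-prime minus 5-prime difference of 4 control transcripts, a common measure of RNA quality, was 1.07 ± 0.06 on chow, 1.02 ± 0.08 at 5 days and 0.89 ± 0.08 at 42 days (log2, SD, n = 4). With this difference as a covariate the 42-day change was 0.51 for Gys1 1450196_s_at (adjusted p = 0.171) and 0.32 for Ppp1r3c 1425631_at (adjusted p = 0.213), and 17 of all probe sets passed in place of 3953. Its 42-day and chow ranges overlapped at 1 array (0.825 to 0.998 against 0.993 to 1.14), while the 5-day values (0.932 to 1.10) overlapped chow widely.

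Markers of other cells differed between the groups too. All 6 hepatocyte genes passed as higher at 42 days than on chow, with a list mean of 8.36 to 8.75 on chow and 9.30 to 10.6 at 42 days. All 4 tendon genes passed as higher, with a list mean of 9.86 to 10.18 on chow and 10.64 to 11.03 at 42 days. The hepatocyte and tendon lists were chosen after results of these data were known, so their counts are a description only. Of all probe sets, 1.53% passed as higher and 1.68% as lower at 5 days, and 4.65% and 4.13% at 42 days. Of the 10 slow-fibre genes all were higher at 42 days and 2 passed. Of 5 white adipocyte genes measured, 2 passed as lower at 5 days and none at 42 days, with list means of 10.4 to 11.4 on chow, 9.79 to 10.3 at 5 days and 9.75 to 10.7 at 42 days. The 3 brown adipocyte genes had list means of 7.04 to 8.94 on chow, 6.84 to 7.06 at 5 days and 6.86 to 8.01 at 42 days, and none passed at either time. Endothelial list means lay above chow (9.02 to 9.09) at 5 days (9.15 to 9.58) and at 42 days (9.14 to 9.30), and 2 and 1 of the 4 genes passed as higher. RMA signals have no true 0, so none of these markers can be called absent. With the white adipocyte mean as a covariate the 42-day rises were 0.61 (adjusted p = 0.0161) for Gys1 1450196_s_at and 0.45 (adjusted p = 0.0229) for Ppp1r3c 1425631_at, and the 5-day change of the former was 0.26 (adjusted p = 0.297). The part of the hepatocyte, tendon, slow-fibre, endothelial and brown adipocyte markers in these results was not tested. In whole tissue, fewer cells of a type and less RNA per cell cannot be told apart.

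**Figure D3:**
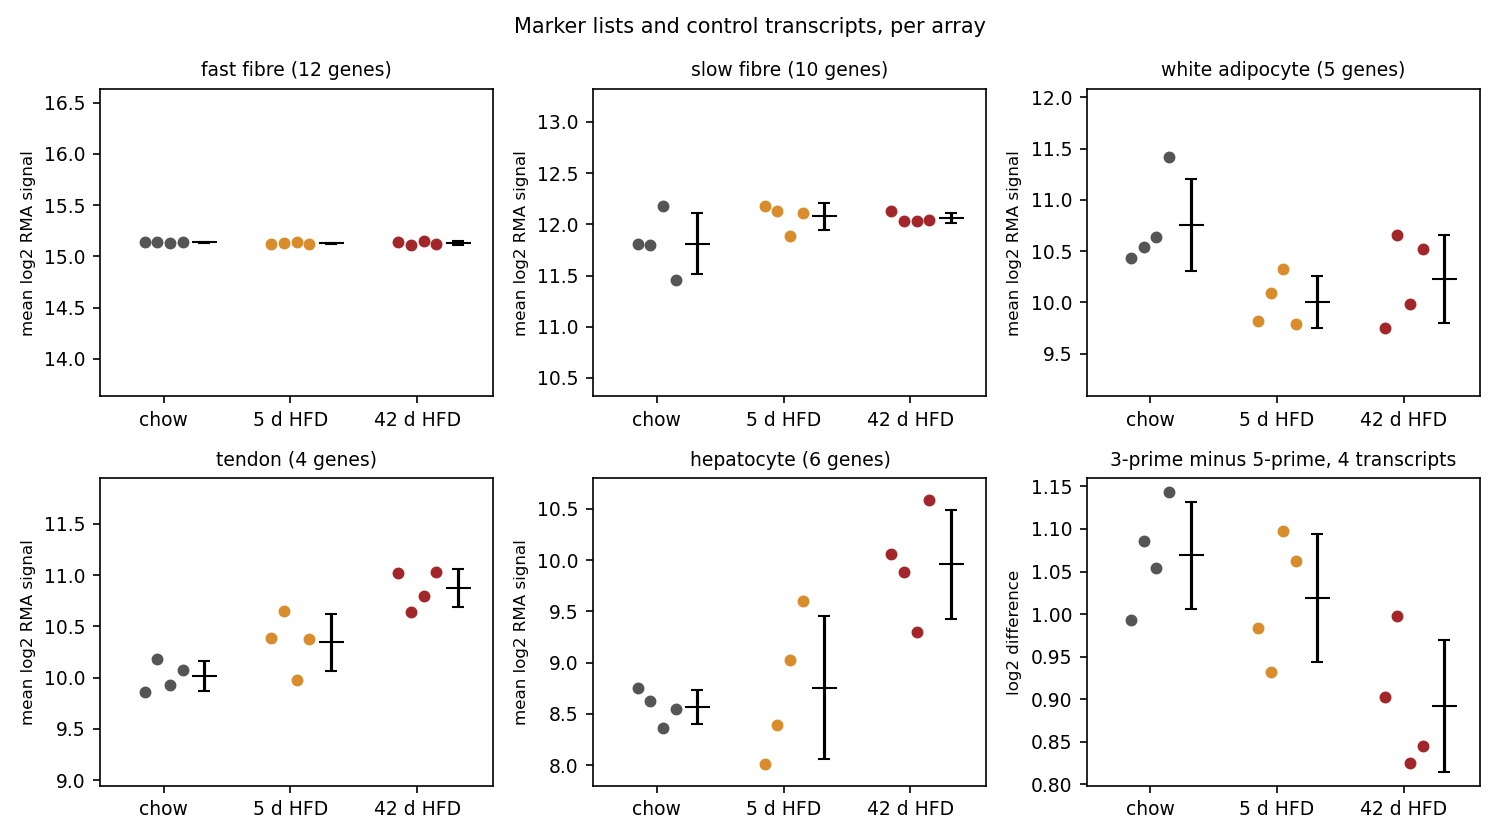
Mean log2 RMA signal per array of 5 marker lists and the 3-prime minus 5-prime log2 difference of 4 control transcripts (lower right), by group; dots are arrays and bars mean ± SD (n = 4). Fast-fibre genes read 15.1 in all groups, a signal at which it was not tested whether a change would register. Tendon and hepatocyte genes are highest and the 3-prime minus 5-prime difference lowest at 42 days.

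Gbe1, which branches the chain, was read by 1 probe set at 9.51, 9.95, 9.83 and 9.81 on chow, 9.88, 9.95, 9.89 and 9.95 at 5 days, and 9.67, 10.03, 9.81 and 9.94 at 42 days. The groups overlapped throughout. Differences from chow were 0.14 ± 0.09 (adjusted p = 0.35) and 0.09 ± 0.09 (adjusted p = 0.63). At 42 days the 95% interval ran from -0.11 to 0.28.

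Pygm carries out the breakdown itself. Its probe set read 14.970, 14.952, 14.954 and 14.963 on chow, 14.954, 14.954, 14.943 and 14.946 at 5 days, and 14.954, 14.954, 14.959 and 14.954 at 42 days. All 12 values lay between 14.943 and 14.970, and the groups overlapped. Differences from chow were -0.01 ± 0.05 and -0.00 ± 0.05, with adjusted p = 0.91 and 0.97. The SE is wider than the spread of the values because limma draws each probe set's variance towards a common one.

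That steadiness went with brightness on this array. Pygm ranked above 99.95% of probe sets in mean signal. The median SD within a group was 0.11 for probe sets of 6 to 8, 0.073 at 12 to 13, 0.058 at 13 to 14, 0.040 at 14 to 14.5 and 0.027 above 14.5. In the last class, with 72 probe sets that include Pygm and the brighter one of Ppp1r3c, none was called at 5 or at 42 days. At 42 days 16.2% of probe sets were called at 12 to 13 and 6.94% at 13 to 14. Apart from Gbe1 and Ppp1r3a, the mean signal of every probe set of these genes was above that of at least 90.9% of all. Whether the array could still register a change of Pygm or of the brighter Ppp1r3c probe set at this signal was not tested.

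**Figure D4:**
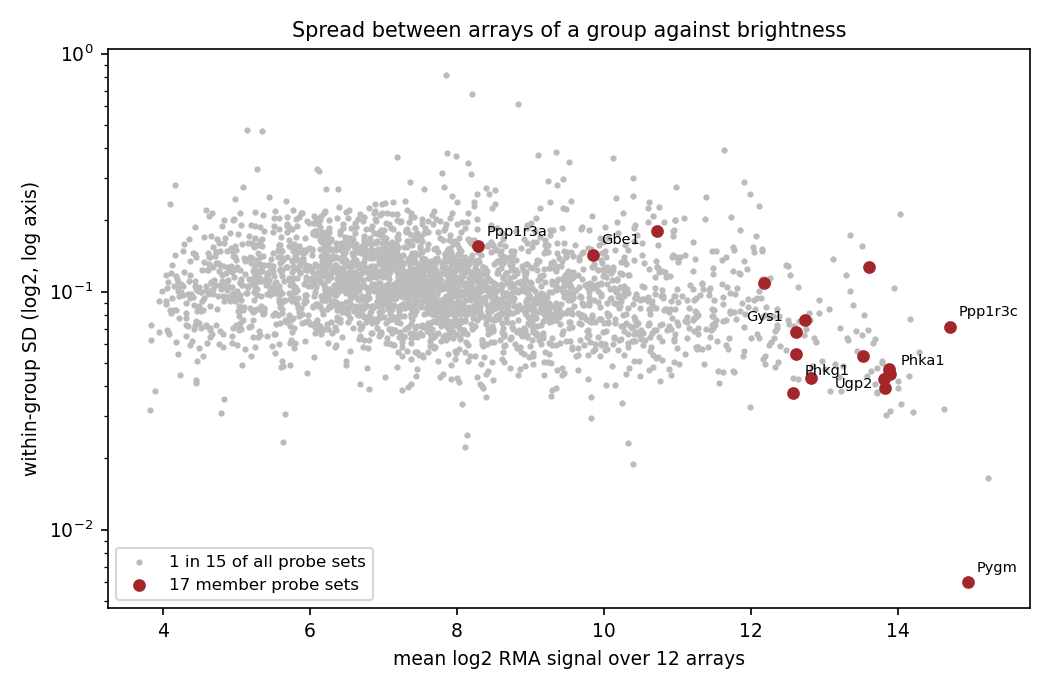
SD within a group (y axis, log scale, log2 units) against the mean log2 RMA signal over 12 arrays (x axis) for the 17 probe sets (red, brightest of each gene named) and 1 in 15 of all others (grey). The spread falls towards the bright end, where Pygm lies lowest.

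Phosphorylase kinase turns Pygm on. The brightest probe set of Phka1, 1422743_at, read 13.81, 13.81, 13.84 and 13.85 on chow, 13.92, 13.89, 13.95 and 13.83 at 5 days, and 13.91, 14.03, 13.91 and 13.94 at 42 days. The 42-day values were all above chow, and 1 of the 5-day values was within the chow range. The difference at 42 days was 0.12 ± 0.05 and did not pass (adjusted p = 0.17). Probe set 1422744_at stood 0.13 ± 0.05 above chow at 5 days and 0.14 ± 0.05 at 42 days, with no overlap at either time, and did not pass (adjusted p = 0.13 and 0.12). Probe set 1435567_at was at 0.10 ± 0.05 and -0.01 ± 0.05, so the 3 did not share a direction at 42 days.

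**Figure D5:**
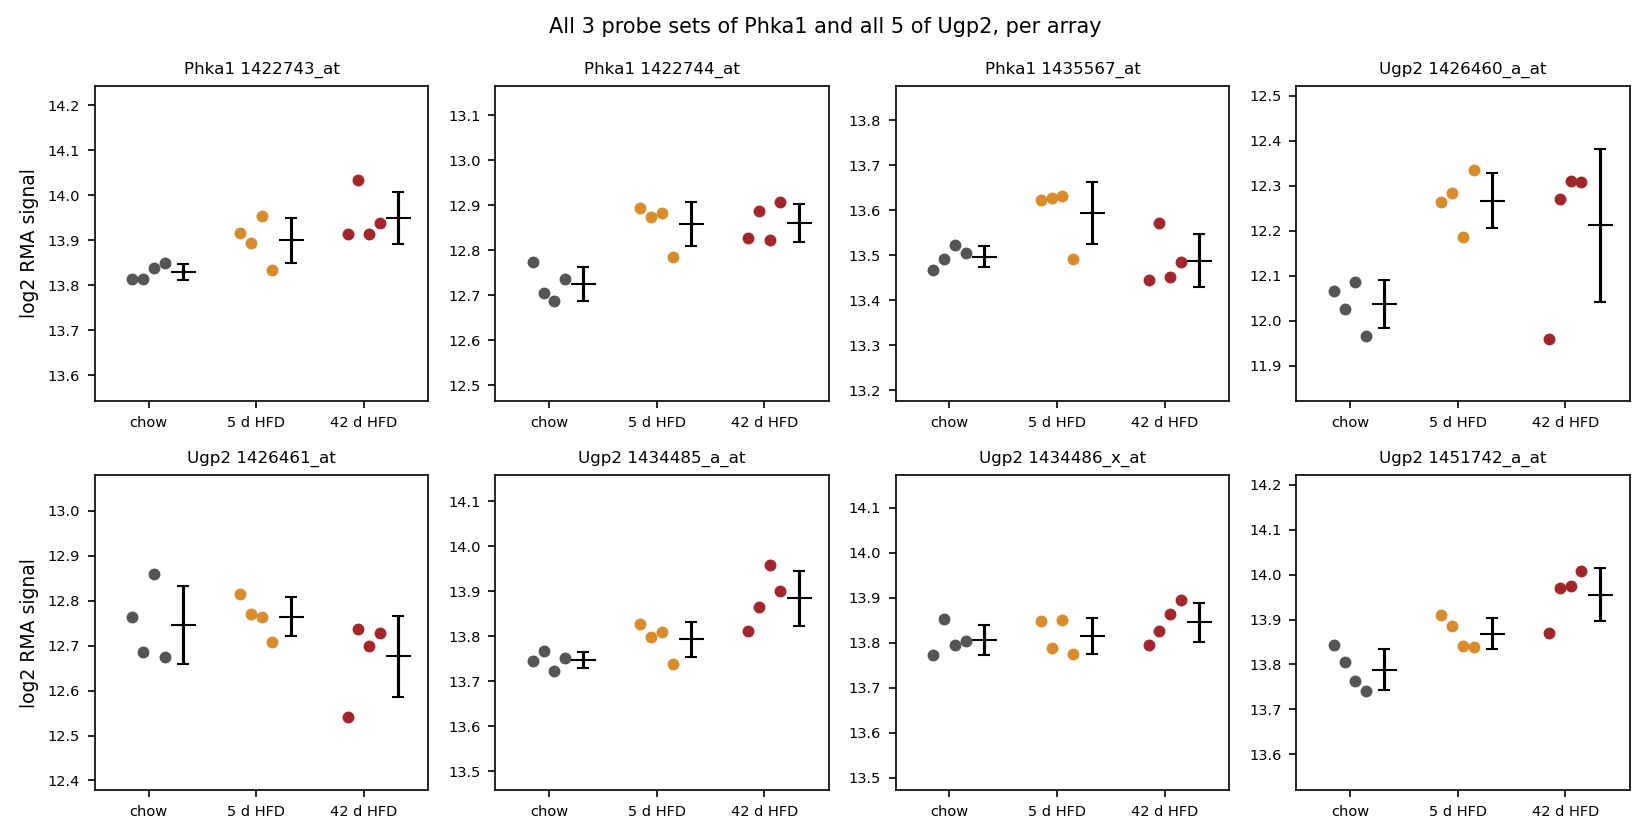
Log2 RMA signal (y axis, equal height in every panel) of the 3 probe sets of Phka1 and the 5 of Ugp2 by group; dots are arrays and bars mean ± SD (n = 4). The 42-day arrays lie above all chow arrays in 2 probe sets of Phka1 and 2 of Ugp2, and overlap chow in the others.

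The catalytic subunit, Phkg1, gave 12.68, 12.57, 12.61 and 12.62 on chow, 12.65, 12.71, 12.60 and 12.62 at 5 days, and 12.60, 12.49, 12.64 and 12.60 at 42 days at its brightest probe set, 1425164_a_at. These overlapped, with differences from chow of 0.03 ± 0.05 and -0.04 ± 0.05. The other, 1422315_x_at, whose suffix marks possible cross-hybridisation, differed by 0.00 ± 0.05 and -0.06 ± 0.05. The 95% intervals of both lay between -0.16 and 0.14 for the differences from chow.

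Ppp1r3a is the glycogen-targeting subunit found mainly in striated muscle. Its 1 probe set read 8.41, 8.39, 8.18 and 8.28 on chow, 8.26, 7.92, 8.28 and 8.41 at 5 days, and 8.43, 8.45, 8.24 and 8.19 at 42 days. The groups overlapped, and the lowest value, 7.92, came from 5-day replicate 2. The differences from chow were -0.10 ± 0.10 and 0.01 ± 0.10, with a 95% interval of -0.19 to 0.22 at 42 days. A change of the size seen in 1 probe set of Ppp1r3c lies outside that interval, which holds for the reading of this probe set only. It stood at percentile 63.7 of mean signal, and whether it would register a change of the transcript was not tested.

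Other genes of the pathway were read at the brightest probe set of each, 34 genes in 4 lists. At 5 days 2 of the 34 passed as lower and none as higher, at 42 days 1 as higher and 2 as lower, and between 5 and 42 days 2 as higher and 1 as lower. Over all probe sets 3.21% passed at 5 days, 8.78% at 42 days and 5.98% between 42 and 5 days. Counts this small do not set the 34 genes apart from all probe sets. Of 8 other enzymes and glycogen proteins, among them Gyg, the glycogenin primer, and Gaa, the lysosomal glucosidase, none passed in any comparison. The smallest adjusted p of these at 5 days was that of Pgm2l1, a glucose bisphosphate synthase, at 0.20 ± 0.06 (adjusted p = 0.065).

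A list of 6 genes, the isozymes best known from other tissues and Phkb, the beta subunit of phosphorylase kinase that muscle uses too, were all lower at 5 days, with a median of -0.14, and 1 of them passed. That was Pygl, the liver phosphorylase, at 7.89, 8.28, 8.93 and 9.68 on chow, 7.24, 7.51, 7.66 and 7.59 at 5 days, and 7.72, 7.74, 7.35 and 8.13 at 42 days. The 5-day values were all below chow, and the 42-day values overlapped it. Pygl fell by 1.20 on the log2 scale at 5 days (SE 0.27, adjusted p = 0.0362) and by 0.96 at 42 days (SE 0.27, adjusted p = 0.0407). With the white adipocyte mean as a covariate the changes were -0.49 ± 0.27 (adjusted p = 0.323) and -0.46 ± 0.23 (adjusted p = 0.326), and neither passed. With an array left out, the calls held in 7 and 5 of 12 fits, and both were lost without chow replicate 3 or 4, the arrays with the highest Pygl. Brown adipocyte means were highest on the same 2 chow arrays, and their part was not tested. Gys2, the liver synthase, was dim and read 6.41 ± 0.10 at 5 days and 6.72 ± 0.14 at 42 days, a rise of 0.31 ± 0.08 (adjusted p = 0.0332), while neither time passed against chow. This call held in 6 of 12 fits with an array left out.

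Of 10 other subunits and inhibitors of protein phosphatase 1, Ppp1r3b, a targeting subunit best known from liver, was the 1 that passed. It read 7.08, 7.25, 7.72 and 7.77 on chow and 6.78, 6.73, 6.86 and 7.03 at 5 days, with no overlap, and fell by 0.60 (SE 0.13, adjusted p = 0.035). With the white adipocyte mean as a covariate the change was -0.40 ± 0.17 and did not pass (adjusted p = 0.219), and the call held in 8 of 12 fits with an array left out, and was lost without chow replicate 3 or 4 or 5-day replicate 2 or 4. On chow, brown adipocyte means of 7.04, 7.99, 8.56 and 8.94 on the same arrays had the same order, and their part was not tested. At 42 days the difference was -0.38 ± 0.13 and did not pass (adjusted p = 0.096). The catalytic subunits Ppp1ca, Ppp1cb and Ppp1cc did not pass in any comparison.

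Of 10 kinase genes measured, subunits of glycogen synthase kinase 3, protein kinase A and AMP-activated protein kinase, 3 passed; the calmodulin genes of the same list were not analysed here. Prkaca, the catalytic subunit of protein kinase A, was lower at 42 days than on chow at probe set 1447720_x_at (-0.31 ± 0.07, adjusted p = 0.0118). The suffix of this probe set marks possible cross-hybridisation. The other Prkaca probe set was at -0.08 ± 0.06 and did not pass. Prkab1, a beta subunit of AMP-activated protein kinase, rose by 0.26 ± 0.06 at 42 days at 1452457_a_at (adjusted p = 0.0107), where the 42-day values of 9.40 to 9.46 lay above the chow values of 9.09 to 9.25. Its other probe set was at 0.00 ± 0.06. Gsk3b, a kinase that inactivates glycogen synthase, was lower at 42 than at 5 days at 1437001_at (-0.25 ± 0.07, adjusted p = 0.0488), where neither time passed against chow. Of its 5 other probe sets, 1 passed as lower at 42 days than on chow (-0.31 ± 0.07, adjusted p = 0.0169) and another as lower at 42 than at 5 days (-0.31 ± 0.07, adjusted p = 0.0287). With the white adipocyte covariate the 42-day changes were -0.27 (adjusted p = 0.0924) for Prkaca and 0.23 (adjusted p = 0.0909) for Prkab1, and did not pass, while both passed with each array left out. The Gsk3b call held in 4 of 12 such fits. With the covariate of control transcripts the 42-day adjusted p was 0.330 for Prkaca and 0.266 for Prkab1. None of the calls at the brightest probe sets of Pygl, Gys2, Ppp1r3b and these kinases passed with that covariate. The calls of Gys2, Ppp1r3b and Gsk3b, and that of Pygl at 5 days, were also lost under quantile normalization and cyclic loess. A call at 1 probe set of Prkaca, Prkab1 or Gsk3b was thus not shared by every other probe set of that gene. Directions did not all differ, as the other Prkaca probe set was also lower at 42 days than on chow. Between 42 and 5 days, the Gsk3b probe sets that did not pass were at -0.17, -0.12, -0.10 and 0.11. The gap between probe sets was not tested for these genes.

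Genes whose levels ran most like the brighter Gys1 probe set over the 12 arrays, out of 18185 searched, were Tln2 (Pearson r = 0.954), Fiz1 (0.951), Fam53b (0.947), Arhgef7 (0.937) and Map2k2 (0.933). For Pygm they were Zp3 (0.948), Nfkbid (0.939), Gm19277 (0.934), Zpbp2 (0.929) and Klrg2 (0.929). The Pygm values spanned only 14.943 to 14.97, with several tied at 14.954. By rank (Spearman) the correlations were 0.80 to 0.83 for Pygm and 0.89 to 0.95 for Gys1. These are the highest of many correlations over arrays that share the 3 diet groups, and are a description only.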

How the data were processed

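Biotin-labelled cRNA from skeletal muscle was hybridised to 12 Affymetrix arrays, 4 per group. The deposited values are log2 RMA signals per probe set. RMA is named in the submitters' processing notes with no version, and values between 3.67 and 15.46 are on a log2 scale. Of 45098 probe sets, 61 controls were left out and 45037 tested, with no filter on dim ones. Probe sets were named from GEO's platform annotation: 34945 carried 1 gene symbol, 932 several and 9160 none. Probe sequences were not used here.

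The 3 groups were fitted in limma 3.58.1 (R 4.3.3) over all 12 arrays (eBayes, constant prior, 9 residual and 6.26 prior degrees of freedom), with 3 two-sided contrasts, a moderated F-test and Benjamini-Hochberg adjustment over all probe sets tested. Both comparisons with chow share the chow arrays. The fit was tested on simulated data. Precision is limited by the number of arrays, which carry no read depth.

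The members and lists were chosen with earlier results of these data known, and the hepatocyte and tendon lists after such results. Every member probe set is reported, with values per array for the brightest of each gene and for each that passed. Related genes are named where their brightest probe set passed, and the 5 genes most like Gys1 and Pygm by Pearson correlation. Pgm2l1, the probe sets of Gsk3b, Prkaca and Prkab1 beside the brightest, and members of lists that did not pass were named after their values were seen. Alternatives were other normalizations, filters, summaries per gene, array weights, a trended prior, the 8 arrays compared, a replicate block, the adipocyte marker mean as a covariate, a looser threshold and leaving out each array. The covariate of control transcripts and the test between probe sets of a gene were added after the data were seen. Motifs were searched in RefSeq promoter windows of GRCm38.p6. Replicate numbers did not pair the arrays. The alternatives for the related genes that passed were added after seeing the data.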

Additional observations from a re-analysis of the deposited data

Results flagged for a closer look

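Of 69 groups of 4 arrays looked at, over 23 probe sets, 3 held an array set apart from its group by a gap that, as a share of the group's range, was past Dixon's 95% limit. Chance gives about 1 group in 20. For Pygm at 42 days the ratio was 1, with replicate 3 at 14.959 and the other arrays at 14.954. For Phka1 1435567_at at 5 days it was 0.936, with replicate 4 at 13.49 and the others at 13.62 to 13.63. For Ugp2 1426460_a_at at 42 days it was 0.886, with replicate 1 at 11.96 and the others at 12.27 to 12.31.

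The change from chow differed between 42 and 5 days, by limma's contrast of those groups, for 4 genes. It was -0.21 for Gys1 1416737_at (adjusted p = 0.0458), 0.31 for Gys2 (adjusted p = 0.0332), -0.25 for Gsk3b 1437001_at (adjusted p = 0.0488) and 0.23 for Prkab1 1452457_a_at (adjusted p = 0.0354), on the log2 scale. With an array left out, these calls held in 3, 6, 4 and 6 of 12 fits.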

How the results depend on the processing

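The 42-day rises of Gys1 1450196_s_at and Ppp1r3c 1425631_at passed under every alternative run on them except the covariate of control transcripts (0.51 and 0.32), and with each array left out. The other calls did not hold as well. Counts of these probe sets that passed at 5 days, 42 days and between 42 and 5 days were 1, 2 and 1, and 2 in the F-test. They fell to 0, at 5 days and between 42 and 5 days, under quantile normalization, cyclic loess, the averaged probe sets per gene, the 8 arrays compared, the replicate block and the adipocyte covariate. They were 0 in all 3 and in the F-test with the control transcripts as a covariate. With the brightest probe set per gene they were 0 at 5 and at 42 days, and 1 of 8 in the F-test. The trended prior gave 6 at 42 days, 2 between 42 and 5 days and 7 in the F-test, the arrays centred on their median 4 at 5 days and 5 in the F-test, the 40% dimmest left out 2 between 42 and 5 days, and an adjusted p under 0.1 gave 3 at 5 days, 3 between 42 and 5 days and 5 in the F-test. Leaving out each array gave 0 to 2 at 5 days, 2 to 4 at 42 days (4 without 42-day replicate 1) and 0 to 1 between 42 and 5 days.

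Counts over all probe sets were 1445 at 5 days, 3953 at 42 days and 2692 between 42 and 5 days. At 5 days they were 482 with quantile normalization, 2771 centred, 502 with loess, 692 with the brightest, 696 with the mean per gene, 675 with array weights, 7 with the 8 arrays compared, 0 with the adipocyte covariate, 4770 at the looser threshold and 533 with the control transcripts. At 42 days they were 1011 with the brightest, 908 with the mean, 1299 with the adipocyte covariate, 6114 at the looser threshold and 17 with the control transcripts. Between 42 and 5 days they were 1210 with quantile normalization, 5221 centred, 1128 with loess, 1550 with the brightest, 529 with the mean, 6769 at the looser threshold and 1 with the control transcripts. The share of higher calls at 5 days was 47.5%, and 60.6% with quantile normalization, 85.3% centred and 62.5% with loess; between 42 and 5 days it was 39.9%, and 9.69% centred. Leaving out an array gave 5 to 1591 at 5 days (5 without chow replicate 3 or 5-day replicate 2), 1945 to 4407 at 42 days (fewest without chow replicate 3) and 32 to 3173 between 42 and 5 days (32 without 42-day replicate 4). Leaving out 1 array moved the count by over 1.5 times for 8 of the 12 arrays at 5 days, 2 at 42 days (chow replicate 3 and 42-day replicate 4) and 6 between 42 and 5 days. Fewer genes tested lowers the counts per gene; the cause of the other shifts was not tested.

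Directions turned for small differences that had not passed, and, when probe sets were averaged, for the lower 42-day than 5-day level of Gys1, which had. Averaging the probe sets of each gene, in place of the brightest, put Gys1 at 0.32 (adjusted p = 0.0276) and Ppp1r3c at 0.25 (adjusted p = 0.0299) at 42 days, both past the test, and Gys1 at 0.044, Ppp1r3c at 0.11 and Phka1 at -0.018 between 42 and 5 days. Quantile normalization gave -0.029 (Phkg1 1422315_x_at), -0.0060 (Phkg1 1425164_a_at), -0.022 (Ugp2 1426461_at) and -0.00055 (Ugp2 1434486_x_at) at 5 days, and 0.0078 (Pygm) at 42 days, and 0.031 (Gbe1), 0.0022 (Phkg1 1422315_x_at) and 0.017 (Ugp2 1426460_a_at) between 42 and 5 days. Cyclic loess gave -0.054 (Phkg1 1422315_x_at), -0.029 (Phkg1 1425164_a_at), -0.00067 (Ppp1r3c 1433691_at), -0.036 (Ugp2 1426461_at) and -0.031 (Ugp2 1434486_x_at) at 5 days, and 0.015 (Phka1 1435567_at), 0.0021 (Ppp1r3c 1433691_at) and 0.011 (Pygm) at 42 days, and 0.032 (Gbe1), 0.023 (Phkg1 1422315_x_at), 0.018 (Phkg1 1425164_a_at), 0.0027 (Ppp1r3c 1433691_at) and 0.032 (Ugp2 1426460_a_at) between 42 and 5 days. Centring on the median gave 0.049 (Pygm) at 5 days, and -0.015 (Phka1 1422743_at), -0.063 (Phka1 1422744_at), -0.059 (Pygm) and -0.035 (Ugp2 1434486_x_at) between 42 and 5 days. Array weights gave -0.0049 (Ppp1r3a) at 42 days, and -0.0056 (Phka1 1422744_at) between 42 and 5 days. The adipocyte covariate gave -0.011 (Phkg1 1422315_x_at) and -0.014 (Phkg1 1425164_a_at) at 5 days, and 0.034 (Phka1 1435567_at) and -0.038 (Ppp1r3a) at 42 days, and -0.0090 (Phka1 1422744_at) between 42 and 5 days. The control transcripts as a covariate gave -0.018 (Phkg1 1422315_x_at) and -0.0075 (Phkg1 1425164_a_at) at 5 days, and 0.021 (Phka1 1435567_at) at 42 days, and 0.047 (Gbe1) and -0.0073 (Phka1 1422744_at) between 42 and 5 days.

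With each array left out in turn, differences that crossed 0 ranged over -0.018 to 0.012 (Phkg1 1422315_x_at), -0.16 to 0.0042 (Ppp1r3a), -0.014 to 0.048 (Ppp1r3c 1433691_at), -0.0053 to 0.056 (Ugp2 1426461_at) and -0.0023 to 0.025 (Ugp2 1434486_x_at) at 5 days. They ranged over -0.0027 to 0.15 (Gbe1), -0.037 to 0.0054 (Phka1 1435567_at), -0.033 to 0.057 (Ppp1r3a) and -0.053 to 0.013 (Ppp1r3c 1433691_at) at 42 days, and over -0.11 to 0.0098 (Gbe1), -0.022 to 0.015 (Phka1 1422744_at) and -0.088 to 0.029 (Ugp2 1426460_a_at) between 42 and 5 days.

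Replicate numbers gave no sign of pairing: of 12 pairs with a number in common, 4 had a correlation over 0.1 (range -0.18 to 0.18), and 4 of 12 arrays were closest to their own number. With the replicate block the 42-day count of these probe sets stayed at 2.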
